A study of Mus musculus with 4 samples.

Results

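The boundary at the downstream end of the topologically associating domain (TAD) that holds the operator arrays was followed as an anchor, that is, a fixed set of bins whose contacts with every other bin of the captured region were read out. It was made of 3 bins of 6.4 kb on mouse chromosome 15, chr15:11884801-11904000 (mm9, counted from 1), between the genes Npr3 and Sub1. Its members were all bin pairs with 1 bin in the anchor and the other anywhere in the captured region (10278401 to 13196800). The 2 bins of the arrays, 4 bins at the promoter of Tars and 2 at the promoter of Npr3 were left out. This gave 1341 bin pairs, 3 for each of 445 partner bins and 6 within the anchor, of 104196 in the region and 296231 listed in any map of the series. Both bins were balanced in 1338 of them, and between 1179 and 1217 held at least 1 read in a library. The anchor was chosen by its insulation in 1A2 and 1F4 and with earlier results of these maps known, so that its insulation, its stripe and its contacts with other boundaries are descriptions, and no test is attached to them.

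Tiled Capture-C counts how often 2 sites are ligated together after crosslinking and cutting, here with MboI, which cuts at GATC, and after enrichment of the target region. All 4 libraries came from E14 mouse embryonic stem cells (mESCs) whose array TAD had lost its internal CTCF sites in earlier work, which carried a TetO and a LacO operator array on 1 allele, and in which both copies of the cohesin subunit gene Rad21 carried a HaloTag-FKBP tag. Line 1B1 kept cassettes of 3 CTCF sites beside each array in convergent orientation and had lost the promoters of the resistance genes. Line 1A2 lacked both the cassettes and these promoters. Line 1F4 lacked the CTCF cassettes and kept the promoters. The treated library, 1B1 -cohesin, came from 1B1 cells given 500 nM dTAG-13 for 2 h, which sends the tagged RAD21 to degradation. Each line is 1 clone and each group has 1 library, so no difference below has a replicate check. The anchor itself was not edited in any library. Its centre lay 249.6 kb downstream of the TetO bin and 396.8 kb downstream of the LacO bin. The maps average over both alleles and many cells, so a contact made in fewer cells and a contact made less often in each cell cannot be told apart.

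TADs are stretches of chromosome whose sequences contact each other more than sequences outside. Cohesin is thought to reel chromatin into growing loops until it meets CTCF bound to DNA, mainly where the CTCF motif points towards the incoming loop. A site that holds up cohesin therefore often shows as a stripe in a contact map, a line of raised contacts that starts at the site and runs along one of its sides, and pairs of such sites show as focal contacts.

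The sequence of the anchor is shown first, because the strands of its CTCF motif matches and the sides of its stripes are set beside each other below. A search for the CTCF core consensus on both strands found 3 matches in the anchor. None lay in the bin from 11884801 to 11891200, which overlaps no annotated gene. The middle bin (11891201 to 11897600) held 2 matches on the minus strand, and an annotated non-coding RNA named 7SK lay in it at 11895085 to 11895344. The bin from 11897601 to 11904000, also without a gene, held 1 match on the plus strand. Each match is written 5′ to 3′ along its own strand, with the core in capitals and 20 flanking bases on either side:
core_11895633 (chr15:11895633-11895645, minus strand): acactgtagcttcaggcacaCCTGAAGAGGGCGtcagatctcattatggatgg
core_11896315 (chr15:11896315-11896327, minus strand): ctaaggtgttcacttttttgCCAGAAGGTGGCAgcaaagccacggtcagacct
core_11901433 (chr15:11901433-11901445, plus strand): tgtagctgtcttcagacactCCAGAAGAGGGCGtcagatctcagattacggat

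Such matches were not rare. The region held 94, of which 53 were on the plus and 41 on the minus strand, and 37.2% of its 454 stretches of 3 bins had at least 1. At least 3 matches lay in 6.6% of the stretches, and matches on both strands in 5.9%. Among the 94, 67 had flanks that shared at least 24 of 40 bases with the flanks of another match, as copies of an interspersed repeat do. Mouse B2-type repeats are known to carry a CTCF core. core_11895633 and core_11901433 were of this kind, sharing at least 24 flanking bases with 44 and 51 of the other 93 matches. core_11896315 shared at most 18 flanking bases with any other match, and a match of this second kind lay in 14.3% of the stretches. Whether CTCF binds any of them was not measured in these maps, and a match is a description of the letters only.

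The label of a boundary was checked first. Insulation is the log2 mean contact across a bin in a square of 20 by 20 bins, minus the log2 of its regional mean, and boundaries are its minima. In the middle bin it was -0.85 in 1A2 and -0.96 in 1F4, with -0.76 in 1B1 and -0.52 in 1B1 -cohesin, which placed the bin at rank 17, 5, 17 and 20 from the lowest of 415 bins. The minimum lay in the middle bin in the 3 untreated libraries. After cohesin degradation it lay in the next bin downstream, at -0.53. The anchor bins held 13, 15 and 16 GATC sites, near the median of 15 per bin of the region, and their GC content of 42.6%, 45.7% and 45.0% was near the median of 42.9%. The members held 13601 reads in 1A2 and 16738 in 1F4, with 13595 in 1B1 and 12831 in 1B1 -cohesin, out of 1225535, 1558596, 1222239 and 1375312 in the region and 3214144, 4089968, 3234581 and 3622612 in all.

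Each bin as a viewpoint showed where contacts changed side. Contacts are given as observed/expected, the balanced value divided by the mean at that separation in the region, and averaged here over partners 60 kb to 1 Mb away from the bin. The bin 11884801 to 11891200 had upstream contacts of 1.85 in 1A2 and 1.99 in 1F4, with 1.555 in 1B1 and 1.11 in 1B1 -cohesin. The middle bin was alike, at 1.90, 2.06, 1.67 and 1.15. Both were poor in downstream contacts, with values from 0.676 to 0.891 over the 4 libraries. The bin 11897601 to 11904000, which holds the plus-strand match, was raised on both sides, at 1.55, 1.70, 1.40 and 1.17 upstream and 1.30, 1.33, 1.30 and 1.42 downstream. One side of the boundary thus passed into the other within this bin, and in 1B1 -cohesin it was the downstream side that was higher there.

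The rule placed the edges of the anchor within a broader shoulder. Just outside on the upstream side, the bin that starts at 11878401 had upstream contacts of 2.16, 2.31, 1.964 and 1.27, which were higher than those of any anchor bin in each of the 4 libraries. Just outside on the downstream side, the bin that starts at 11904001 had upstream contacts of 1.001, 0.963, 0.872 and 0.767 and downstream contacts of 1.33, 1.48, 1.43 and 1.33. High upstream contacts were not tied to the anchor bins. They went on further upstream, at 2.28, 2.26, 1.86 and 1.345 in the bin that starts at 11872001, 2.38, 2.52, 1.84 and 1.78 in that at 11846401, and 1.821, 1.815, 1.64 and 1.42 in that at 11820801, 70.4 kb from the anchor centre, whereas the first bin downstream did not have them.

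**Figure D1:**
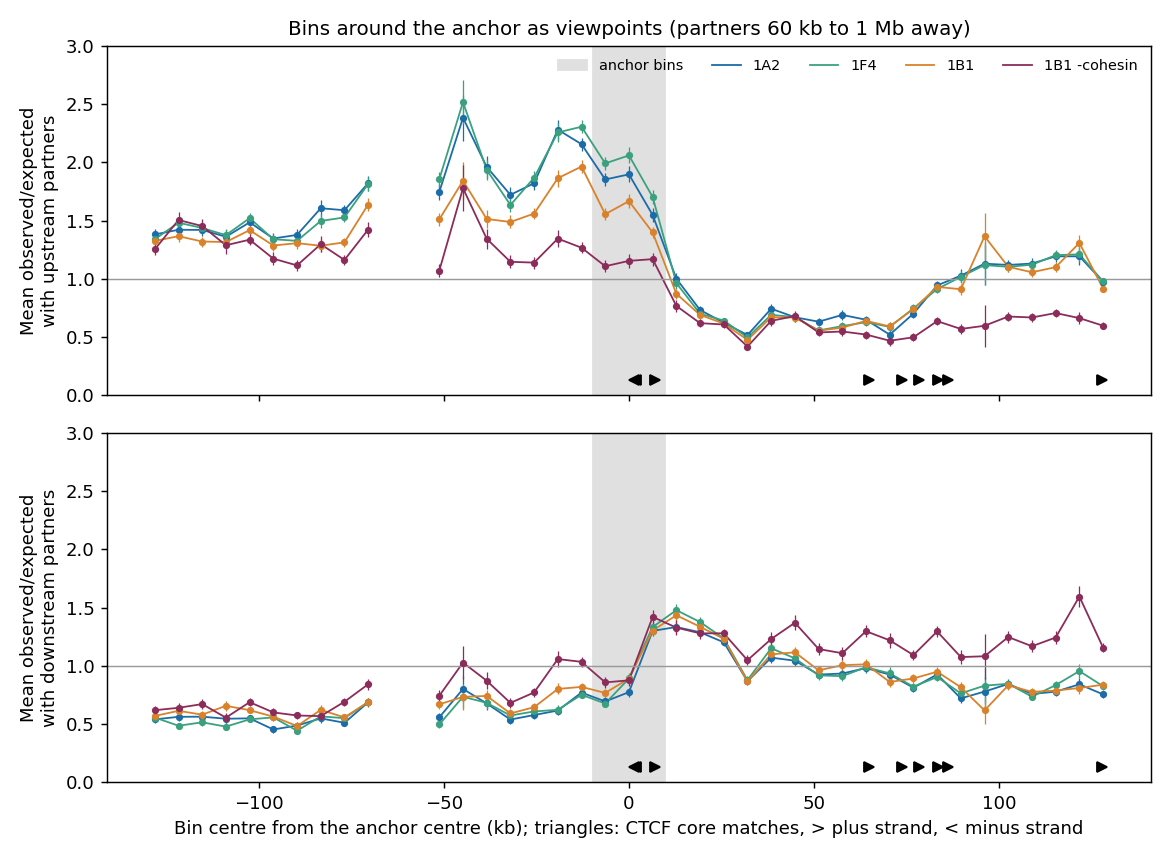
Mean observed/expected contact of single bins around the anchor (shaded) with partners 60 kb to 1 Mb upstream (top) and downstream (bottom), against the position of the bin in kb from the anchor centre; points are the 4 libraries, bars are counting errors, and triangles mark CTCF core matches by strand. Upstream contacts drop across the third anchor bin, where downstream contacts become high, and in 1B1 -cohesin the middle bin sits at 1.15 on the upstream side against 1.67 in 1B1.

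Averaged over partners 60 kb to 1 Mb away, the anchor's contacts were raised on the upstream side, towards the far part of the array TAD and beyond it. Upstream contacts within 250 kb were nevertheless below the regional mean in all 4 libraries. Downstream contacts at 100 to 250 kb were also raised in the untreated libraries, at 1.30, 1.38 and 1.31 in 1A2, 1F4 and 1B1. The mean over a side is called the stripe below. Over partners 60 kb to 1 Mb away, the mean observed/expected of the 3 bins on the upstream side was 1.76 ± 0.036 in 1A2 (counting error, 4251 reads in 420 bin pairs), 1.91 ± 0.036 in 1F4 (5216 reads), 1.535 ± 0.031 in 1B1 (4138 reads) and 1.14 ± 0.033 in 1B1 -cohesin (2283 reads). The treated library was the lowest, and 1B1 was the lowest of the untreated lines. On the downstream side the values were close to the mean of the region, at 0.924 ± 0.023, 0.968 ± 0.023, 0.989 ± 0.023 and 1.045 ± 0.030 in the same order. Among 284 stretches of 3 bins with at least 500 kb on either side, the upstream value stood at percentile 92.3, 94.4, 90.1 and 65.5, with medians of 0.910, 0.890, 0.909 and 0.992. Counting errors are the Poisson errors of the reads behind the balanced values. They do not cover differences between cultures or preparations, and the reads carried no molecular identifiers.

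The log2 ratio of upstream over downstream contacts was 0.93 ± 0.046 in 1A2 and 0.98 ± 0.043 in 1F4, with 0.63 ± 0.044 in 1B1 and 0.13 ± 0.058 in 1B1 -cohesin. Upstream contacts were thus 1.91-fold, 1.98-fold, 1.55-fold and 1.09-fold those downstream. Averaged over 60 kb to 1 Mb, the anchor's contacts were thus higher upstream in the untreated libraries and nearly even after cohesin degradation, although within 250 kb the downstream side was the higher in the untreated libraries, as given by separation below. With the middle bin alone the log2 ratio was 0.91 in 1B1 and 0.40 in 1B1 -cohesin, and at 100 to 500 kb 0.32 and 0.24, so that treated and untreated 1B1 lay close together over the shorter range. The ratio stood at percentile 81.7, 81.7, 76.1 and 53.9 of the 284 viewpoints.

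Cohesin degradation was compared within clone 1B1, which asks how the boundary's contacts differ once cohesin is removed. The upstream stripe was lower by a log2 ratio of -0.43 ± 0.051, or 1.345-fold, and the downstream ratio was 0.08 ± 0.053. The upstream difference was larger than those between untreated libraries, which were -0.20 ± 0.041 for 1B1 over 1A2, -0.32 ± 0.040 for 1B1 over 1F4 and 0.12 ± 0.040 for 1F4 over 1A2. It was not extreme for the region. The same ratio over the 284 viewpoints had an SD of 0.32, and the anchor stood at percentile 12.3. The untreated upstream ratios spread less over the viewpoints, with SDs of 0.085, 0.093 and 0.067 in the order given. In these the anchor stood at percentiles 3.2, 1.1 and 97.9, so that relative to the region they lay further out than the ratio after degradation. Since 1A2 and 1F4 chose the anchor, values higher there than in 1B1 are favoured by the choice, and the ratios of 1B1 over them are a description only. This holds for the anchor's stripe, the named windows and the called boundaries below. On the downstream side the 3 untreated ratios were 0.10 ± 0.049, 0.03 ± 0.047 and 0.07 ± 0.049.

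The size of these ratios rested on the range of separations and on the division by the expected value, which itself differed between libraries. At 100 to 500 kb the upstream ratio was -0.265 after degradation, -0.083 for 1B1 over 1A2 and -0.144 for 1B1 over 1F4, and the downstream ratio after degradation was -0.19. Without the division, the upstream ratio after degradation was -0.81 and the downstream one -0.72, while the ratios of 1B1 over 1A2 and over 1F4 on the upstream side were -0.04 and -0.03 and that of 1F4 over 1A2 was -0.00975. The median log2 ratio over all windows of the region moved at the same time from 0.05 to -0.45 after degradation, from 0.01 to 0.09 for 1B1 over 1A2, from 0.03 to 0.19 for 1B1 over 1F4 and from -0.00382 to -0.08 for 1F4 over 1A2. The values below are relative to the expected value of each library.

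By separation, upstream contacts were low near the anchor and high far from it. At 60 to 100 kb they were 0.703 ± 0.042, 0.720 ± 0.038, 0.732 ± 0.043 and 0.834 ± 0.050, the 1 upstream band in which 1B1 -cohesin was above 1B1, by 0.19 ± 0.122. At 100 to 250 kb, inside the array TAD, upstream contacts were at 0.868 ± 0.030 in 1A2 and 0.847 ± 0.027 in 1F4, with 0.945 ± 0.030 in 1B1 and 0.823 ± 0.034 in 1B1 -cohesin. They were 1.55 ± 0.050, 1.65 ± 0.047, 1.39 ± 0.046 and 1.13 ± 0.053 at 250 to 500 kb, which still lies inside the TAD. At 500 to 1000 kb, a stretch that takes in the far end of the TAD and the Adamts12 gene, they were 2.22 ± 0.062, 2.46 ± 0.062, 1.85 ± 0.053 and 1.265 ± 0.054. The ratio after degradation was largest here, at -0.55 ± 0.074, against -0.29 ± 0.083 at 250 to 500 kb and -0.20 ± 0.076 at 100 to 250 kb. Beyond 1000 kb the 4 libraries lay closer together, at 2.045 ± 0.088, 1.74 ± 0.072, 1.70 ± 0.072 and 1.525 ± 0.071, and the ratio after degradation was -0.16 ± 0.090.

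On the downstream side the near and far contacts went opposite ways after degradation, which the mean over the stripe hid. At 60 to 100 kb the downstream contacts were 0.994 ± 0.088, 0.998 ± 0.093, 0.966 ± 0.081 and 0.6445 ± 0.0571. At 100 to 250 kb, which covers the stretch from beyond Sub1 through Zfr to the start of Mtmr12, the untreated libraries were at 1.30 ± 0.037, 1.38 ± 0.036 and 1.31 ± 0.036 and 1B1 -cohesin at 0.842 ± 0.037, a ratio of -0.64 ± 0.074. At 500 to 1000 kb the order was turned, with 0.893 ± 0.039, 0.955 ± 0.039, 0.9994 ± 0.038 and 1.23 ± 0.051, a ratio of 0.30 ± 0.081. Beyond 1000 kb, past the end of Drosha, in the stretch that holds Cdh6, 1B1 -cohesin was at 1.43 ± 0.10 on 272 reads, against 0.697 ± 0.067, 0.684 ± 0.063 and 0.896 ± 0.077 on 127, 139 and 175 reads, a ratio of 0.67 ± 0.16 over 1B1. There 1B1 was itself above the lines without CTCF cassettes, by 0.36 ± 0.19 over 1A2 and 0.39 ± 0.18 over 1F4, about 2 counting errors.

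**Figure D2:**
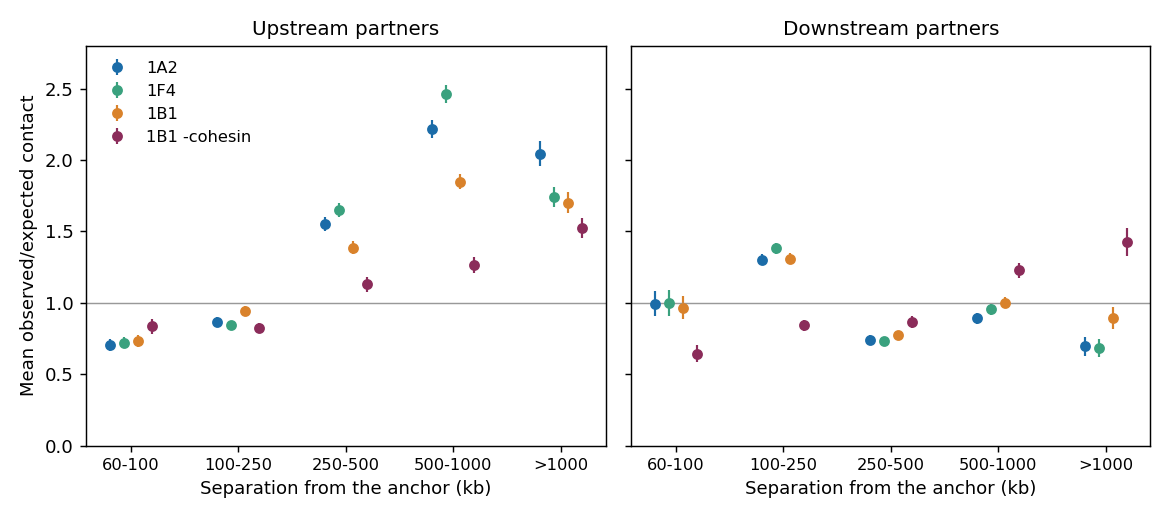
Mean observed/expected contact of the anchor by separation, upstream (left) and downstream (right), in the 4 libraries, with counting errors as bars. Upstream, 1B1 -cohesin is the lowest from 100 kb on; downstream it is the lowest up to 250 kb and the highest from 250 kb on, at 1.43 beyond 1000 kb.

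Partner windows of 3 bins, at least 60 kb from the anchor centre, showed where along the stripe the contacts lay. Neighbouring windows share bins, so their counts are not counts of separate contacts. There were 420 windows, 227 upstream and 193 downstream.

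After degradation, 59 of 319 windows with a mean of at least 20 reads were over 1.5-fold lower (18.5%) and 30 over 1.5-fold higher (9.4%). Among all 3 by 3 windows of the region, 12.1% were lower and 16.0% higher by the same rule. Of the 59 lower windows, 41 lay upstream, of which 26 were at 500 to 1000 kb, and the 18 downstream ones all lay within 250 kb. Of the 30 higher windows, 29 lay downstream, and all 29 were over 250 kb away. Windows passed on the mean reads of both libraries, so a sparse window could pass through its reads in 1B1 -cohesin alone. This favours higher calls far from the anchor. Downstream beyond 1000 kb, 8 windows passed here, 6 of them higher, and 0 passed in each comparison of untreated lines. The place of the higher windows is thus a description only. With a mean of at least 50 reads, 0 of 123 windows were higher and 40 lower, and with the middle anchor bin alone 2 of 87 were higher and 44 lower. Recovered reads in place of balanced values gave 83 lower and 25 higher windows, and balanced values without division by the expected value gave 166 and 7.

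For 1B1 over 1A2, 21 of 320 windows were over 1.5-fold lower (6.6%) and 9 higher (2.8%), against 4.39% and 5.73% of all windows of the region. Of the 21 lower ones, 19 lay upstream. With the middle anchor bin alone 10 of 115 were lower and 12 higher, and with a mean of at least 50 reads 5 of 148 were lower and 0 higher. For 1B1 over 1F4, 30 of 318 were lower (9.4%) and 16 higher (5.0%), against 4.35% and 6.16%, and 26 of the lower ones lay upstream. Recovered reads gave 29 and 9 in this comparison, the middle anchor bin alone 23 and 3 of 121, and a mean of at least 50 reads 14 and 1 of 160. For 1F4 over 1A2, 12 of 314 were lower (3.8%) and 10 higher (3.2%), against 4.97% and 4.24%, which is near the share over the region. The middle anchor bin alone gave 2 and 10 of 120, and a mean of at least 50 reads 0 and 0 of 160. Without division by the expected value the lower and higher counts were 10 and 20 for 1B1 over 1A2, 8 and 48 for 1B1 over 1F4, and 22 and 4 for 1F4 over 1A2. The majority thus turned from lower to higher for 1B1 over 1A2 and over 1F4, and stayed lower for 1F4 over 1A2. These totals do not show whether any single window changed direction.

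**Figure D3:**
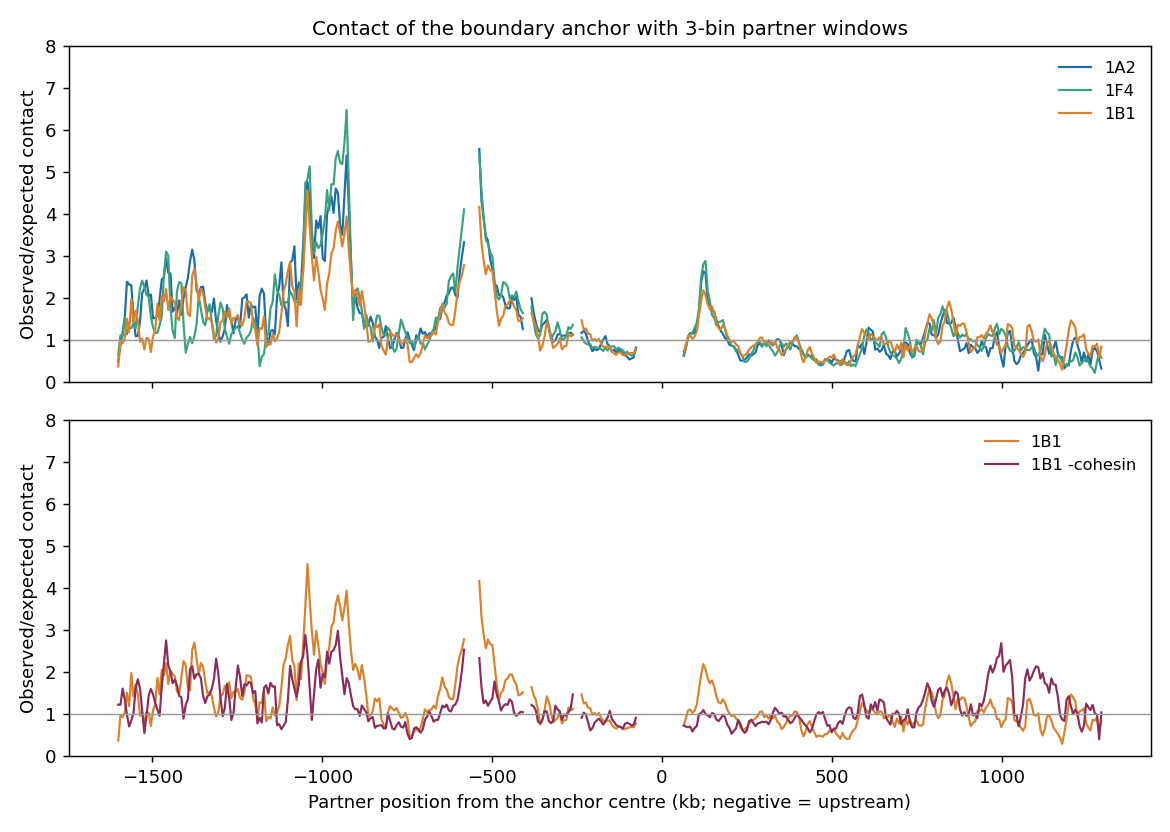
Observed/expected contact of the anchor with 3-bin partner windows along the region, against the distance in kb from the anchor centre, for the 3 untreated libraries (top) and for 1B1 with and without cohesin (bottom); gaps are left-out bins. By the mean of 1A2 and 1F4 the tallest upstream windows stand at 537.6 and 928.0 kb and the tallest downstream window at 128.0 kb, where 1B1 -cohesin is at 1.01.

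**Figure D4:**
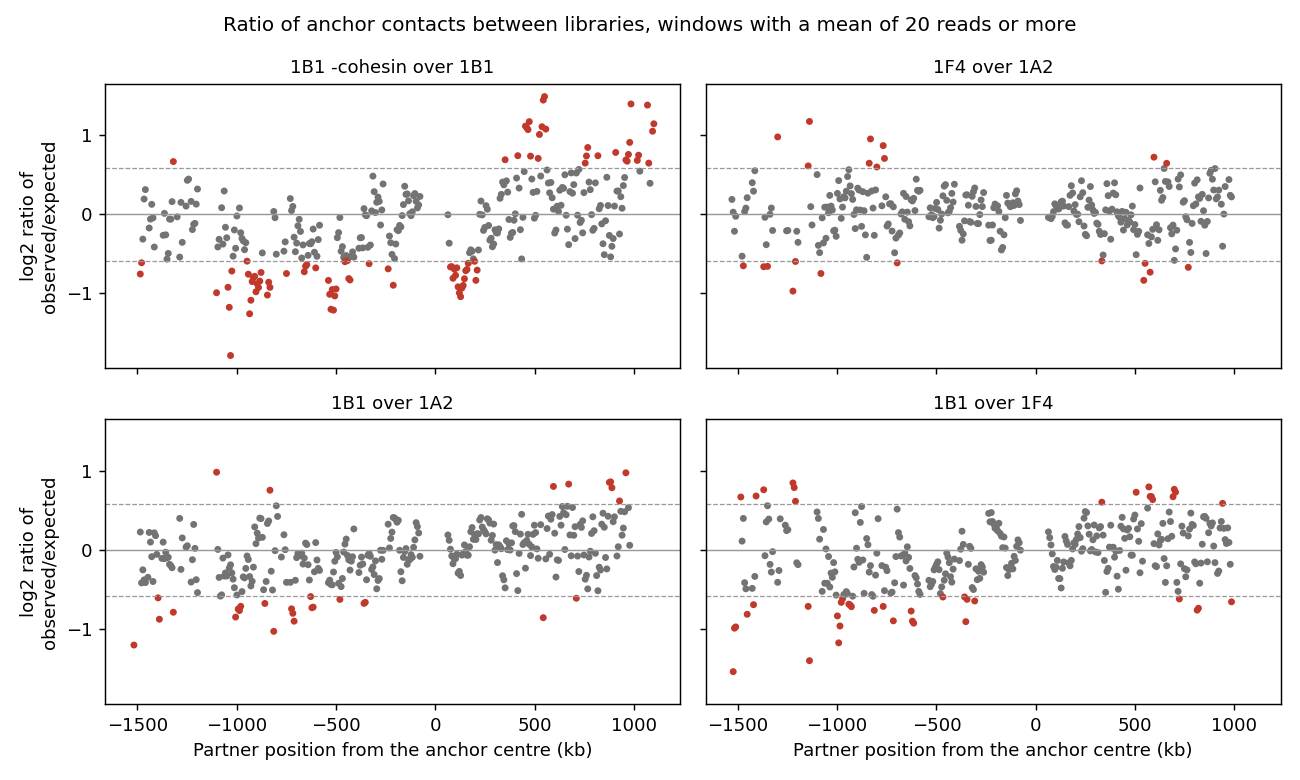
Log2 ratio of the same windows between libraries, for windows with a mean of at least 20 reads; red points are past 1.5-fold (dashed lines). After degradation 41 of the 59 lower windows lie upstream and 29 of the 30 higher windows lie downstream.

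The 5 windows with the highest contact on each side, chosen by their mean in 1A2 and 1F4, were followed through the libraries. The upstream window that ranked first was chr15:10956801-10976000, 928.0 kb away, which overlaps the end of Slc45a2, a transporter of pigment cells, and the whole of Rxfp3, a receptor for the peptide relaxin-3. Its contact was 5.40 ± 0.45 in 1A2 (158 reads), 6.48 ± 0.47 in 1F4 (210 reads), 3.94 ± 0.37 in 1B1 (123 reads) and 1.86 ± 0.31 in 1B1 -cohesin (40 reads). The treated library was 2.12-fold below 1B1, a log2 ratio of -1.09 ± 0.28. This window also held a called boundary, at 10969601 to 10976000, and 1 match to the CTCF core, on the plus strand, the opposite strand to the 2 matches of the middle anchor bin. Its flanks shared at least 24 bases with those of 54 other matches. It is shown because this window ranked first upstream in the mean of 1A2 and 1F4:
core_10961075 (chr15:10961075-10961087, plus strand): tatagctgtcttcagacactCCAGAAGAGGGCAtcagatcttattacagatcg

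Window chr15:11347201-11366400, 537.6 kb upstream, lies next to the left-out Tars bins at the upstream end of the array TAD and has no gene and no match to the core. It was at 5.55 ± 0.35 (271 reads), 5.43 ± 0.32 (313 reads), 4.17 ± 0.30 (216 reads) and 2.34 ± 0.28 (77 reads) in 1A2, 1F4, 1B1 and 1B1 -cohesin. The left-out bins themselves, at the promoter of Tars, the gene of threonyl-tRNA synthetase, had the highest contact with the anchor in the 3 untreated libraries and not in 1B1 -cohesin, at 8.67 ± 0.41, 9.185 ± 0.390, 5.91 ± 0.32 and 2.91 ± 0.29. In both, the treated library was the lowest. Over the end of Tars, on its other flank, chr15:11302401-11321600 was at 3.33 ± 0.27, 4.11 ± 0.28, 2.79 ± 0.23 and 2.535 ± 0.284, and its ratio after degradation, -0.14 ± 0.20, was within its counting error. The Tars bins held 2 matches to the core and this window 1, all on the minus strand, the same strand as the matches of the middle anchor bin, so that matches on opposite strands were not shared by all upstream partners.

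Window chr15:10841601-10860800, 1043.2 kb upstream and free of genes, was alike within counting errors in the 3 untreated libraries, at 4.765 ± 0.5999 (67 reads), 4.83 ± 0.56 (78 reads) and 4.57 ± 0.56 (71 reads). It was at 2.41 ± 0.46 (30 reads) after degradation. The fifth, chr15:11456001-11475200, inside the TAD and 428.8 kb away, went from 2.04 ± 0.17, 2.16 ± 0.16 and 1.71 ± 0.15 to 0.962 ± 0.142. Of the 5 upstream windows, all were lower after degradation, 4 of them past 1.5-fold, whereas 12.1% of all windows of the region were; the 5 were chosen as the highest.

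Downstream, 1 window stood out. chr15:12012801-12032000, 128.0 kb away and without a gene, lies ahead of the start of Zfr, a zinc finger RNA-binding protein. It was at 2.59 ± 0.18 in 1A2 (354 reads), 2.886 ± 0.175 in 1F4 (470 reads), 2.07 ± 0.15 in 1B1 (319 reads) and 1.01 ± 0.13 in 1B1 -cohesin (107 reads). The treated library was thus at the mean of the region and 2.06-fold below 1B1 (log2 ratio -1.04 ± 0.22). The window held 3 matches to the core, 1 on the plus strand and 2 on the minus strand, and thus both orientations towards the anchor. Of the 3, 2 had flanks that shared no more than 20 and 22 bases with any other match, and are shown for that reason:
core_12022041 (chr15:12022041-12022053, plus strand): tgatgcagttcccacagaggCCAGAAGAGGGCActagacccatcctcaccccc
core_12027283 (chr15:12027283-12027295, minus strand): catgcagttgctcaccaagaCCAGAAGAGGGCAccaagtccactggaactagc

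The other 4 downstream windows were weaker and had fewer reads. Their matches to the core lay on both strands, 2 on the minus strand at 825.6 kb, 1 on the plus strand at 608.0 kb, 1 on each at 396.8 kb and 1 on the plus strand at 313.6 kb. Window chr15:12710401-12729600, 825.6 kb away, was at 1.57 ± 0.28, 1.80 ± 0.29, 1.35 ± 0.24 and 1.42 ± 0.31, on 22 to 40 reads. The windows in Pdzd2, a PDZ domain protein, at 608.0 kb and 396.8 kb, and the window at the end of Mtmr12, a myotubularin-related protein, at 313.6 kb, lay between 0.759 and 1.30 in all libraries. The ratios after degradation of these 4 windows, from -0.24 to 0.07, were each within their counting errors.

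**Figure D5:**
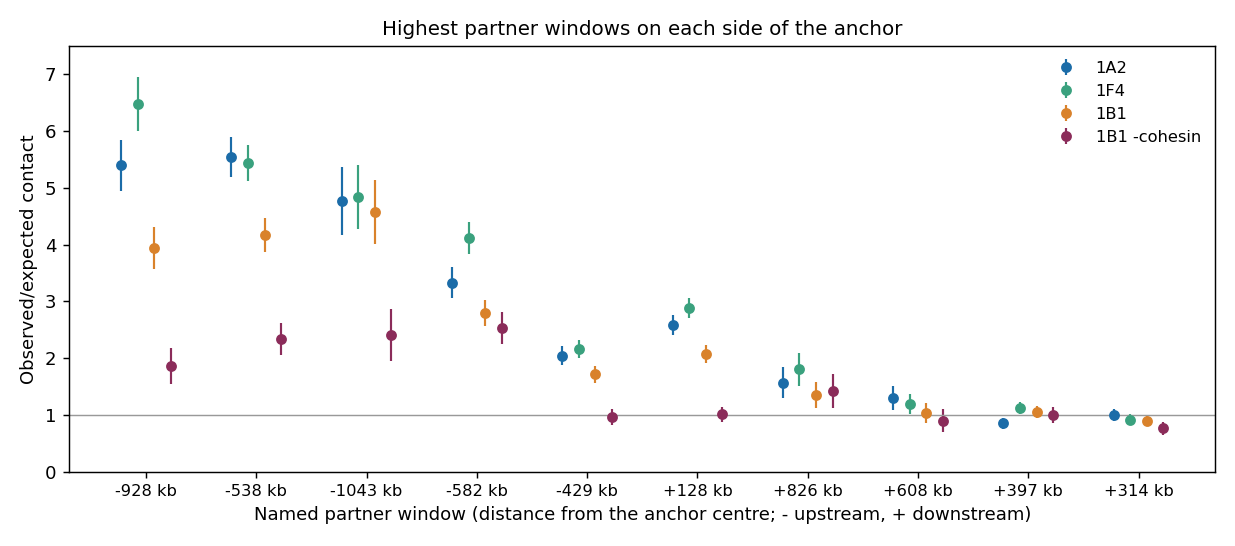
Observed/expected contact of the anchor with the 5 highest windows on each side, ordered by rank within the side, with counting errors as bars. The windows at 928.0 kb upstream and 128.0 kb downstream are at 1.86 and 1.01 in 1B1 -cohesin and between 2.07 and 6.48 in the untreated libraries.

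The largest ratios among windows with enough reads lay at other places. After degradation the lowest ratio was at chr15:10854401-10873600, 1030.4 kb upstream, with 10 reads against 43 and contacts of 0.865 against 2.985, a log2 ratio of -1.786 ± 0.525. It was followed by chr15:10950401-10969600, which overlaps the first-ranked upstream window above, at -1.26 ± 0.28, and by chr15:11372801-11392000, 512.0 kb upstream, at -1.21 ± 0.30 on 32 against 117 reads. The 3 highest ratios were all downstream. They were at chr15:12435201-12454400 within Pdzd2 (0.414 to 1.16 on 15 and 28 reads, 1.49 ± 0.47), at chr15:12870401-12889600 beyond the end of Drosha (0.886 to 2.33 on 17 and 33 reads, 1.40 ± 0.49) and at chr15:12953601-12972800, over the end of Cdh6, a cadherin gene (0.710 to 1.85 on 14 and 32 reads, 1.38 ± 0.49). The lower windows at 934.4 and 512.0 kb thus rested on over 100 reads in 1B1, whereas each of the higher windows rested on fewer than 40.

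Between untreated lines the extremes had few reads. For 1B1 over 1A2 the lowest ratios were at chr15:10368001-10387200 in Dnajc21 (-1.20 ± 0.50 on 15 and 28 reads) and at 2 places in Adamts12, a metalloprotease gene, 812.8 and 710.4 kb upstream (-1.03 ± 0.39 and -0.90 ± 0.39). The highest were 1100.8 kb upstream (0.99 ± 0.49) and at 2 places in Drosha, the nuclease that cuts primary microRNAs (0.98 ± 0.50 and 0.86 ± 0.44). For 1B1 over 1F4 the lowest were again in Dnajc21 (-1.54 ± 0.52), 1139.2 kb upstream (-1.40 ± 0.55) and over C1qtnf3 and Amacr (-1.17 ± 0.41), and the highest, of 0.85 ± 0.45, 0.80 ± 0.40 and 0.77 ± 0.47, lay in 4930556M19Rik and at 2 places in Pdzd2. For 1F4 over 1A2 they ranged from -0.972 ± 0.475 to 1.18 ± 0.51. Each of these ratios was within 3 counting errors of 0.

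Other boundaries of the region were called as local insulation minima in the mean of 1A2 and 1F4, which gave 10 with the anchor. Of these, 8 lay outside the left-out Tars bins. Their median contact with the anchor was 1.345 in 1A2 and 1.30 in 1F4, with 1.52 in 1B1 and 1.62 in 1B1 -cohesin, against 1.015, 1.01, 1.03 and 1.02 over 279 other windows in the same range of separations. Pooled over both sides, the median of far boundaries was above that of other windows in all 4 libraries. By side, the 3 upstream boundaries had medians of 2.31, 2.46, 1.84 and 1.89 and the 5 downstream ones of 1.25, 1.15, 1.22 and 1.23, against 1.41, 1.51, 1.32 and 1.05 over the other windows upstream and 0.752, 0.762, 0.868 and 1.002 over those downstream. Higher values on the upstream side in the untreated libraries were thus shared by the other windows, and the downstream boundaries stood closer to the other windows in 1B1 -cohesin than in the untreated libraries. The median of the 3 upstream boundaries stood further from the other windows in 1B1 -cohesin (1.89 against 1.05) than in 1B1 (1.84 against 1.32). Different boundaries set these medians, that near Rai14 in 1B1 -cohesin (1.89 ± 0.40, 24 reads) and that near C1qtnf3 in 1B1 (1.84 ± 0.35, 30 reads). Their difference is within these counting errors. After degradation 4 of the 8 were lower than in 1B1, 2 of them past 1.5-fold, and 1 was past 1.5-fold higher, against 12.1% lower and 16.0% higher among all windows.

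The boundary at 10969601 to 10976000 by Rxfp3 was at 4.135 ± 0.416, 4.71 ± 0.41, 3.15 ± 0.35 and 1.745 ± 0.357, a ratio of -0.85 ± 0.34 after degradation. The boundary at the start of Zfr (12044801 to 12051200) was at 1.67 ± 0.11, 1.53 ± 0.10, 1.65 ± 0.11 and 1.01 ± 0.10, a ratio of -0.71 ± 0.17. These 2 were the ones past 1.5-fold lower. The boundary inside Drosha (12851201 to 12857600), the one past 1.5-fold higher, was at 0.617 ± 0.178, 1.15 ± 0.24, 1.22 ± 0.23 and 1.961 ± 0.329, on 13, 25, 29 and 38 reads, a ratio of 0.69 ± 0.37, under 2 counting errors.

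The remaining 5 changed by less than 1.5-fold. At 10828801 to 10835200, near C1qtnf3, the contact was 2.31 ± 0.44, 2.46 ± 0.42, 1.84 ± 0.35 and 2.255 ± 0.449. At 10649601 to 10656000, near Rai14, it was 1.30 ± 0.34, 1.17 ± 0.31, 1.385 ± 0.337 and 1.89 ± 0.40 on 16 to 24 reads. At 12736001 to 12742400, in 6030458C11Rik, it was 1.39 ± 0.26, 1.44 ± 0.25, 1.92 ± 0.30 and 1.49 ± 0.30. At the 2 boundaries within Pdzd2 (12288001 to 12294400 and 12505601 to 12512000) it stayed between 0.848 and 1.25 in all libraries. Their ratios after degradation, from -0.37 to 0.45, were each within about 1 counting error.

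As viewpoints, the boundaries at the ends of the array TAD had their higher sides facing each other in the untreated libraries. The upstream one, in the Tars bins (11334401 to 11340800), had downstream contacts, on the side facing the anchor, at 2.01 ± 0.045, 2.045 ± 0.040, 1.70 ± 0.034 and 1.21 ± 0.034 in 1A2, 1F4, 1B1 and 1B1 -cohesin. Its ratio after degradation, -0.49 ± 0.050, was near that of the anchor's upstream side, -0.43 ± 0.051. Both facing sides were lower in 1B1 than in 1A2 and 1F4. Its other side did not resemble the anchor's, however. It was already raised, at 1.35 ± 0.035, 1.41 ± 0.033, 1.36 ± 0.032 and 1.48 ± 0.042, and in 1B1 -cohesin it was the higher of its sides, whereas the anchor's downstream side was between 0.924 and 1.045. Of the other boundaries far enough from the ends of the region to be read on both sides, that near C1qtnf3 also had an upstream side that was lower after degradation, by -0.615 ± 0.056, from 1.68 ± 0.035 to 1.10 ± 0.036. So had that at the start of Zfr, by -0.66 ± 0.068, from an already low 0.742 ± 0.020 to 0.471 ± 0.018. Partners were read only to the edge of the region. The upstream sides near C1qtnf3 and by Rxfp3, and the downstream sides of the 2 boundaries within Pdzd2, therefore covered less than the 1 Mb of the anchor. Their ratios are not over the same range as the anchor's. The upstream ratios of the remaining 4, at Tars, by Rxfp3 and at the 2 boundaries within Pdzd2, were 0.125 ± 0.053, 0.105 ± 0.062, -0.095 ± 0.055 and -0.06 ± 0.057, each within 3 counting errors. The downstream ratios went both ways. They were positive at the start of Zfr (0.28 ± 0.047) and near C1qtnf3 (0.15 ± 0.052). By Rxfp3 the downstream ratio was -0.13 ± 0.053, and at the 2 boundaries within Pdzd2 -0.26 ± 0.040 and -0.08 ± 0.053.

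The list of promoters held all 22 protein-coding genes that start in the region, of which 19 could be measured. Tars and Npr3 were left out by the rule, and Agxt2 lay in a bin that was not balanced. After degradation, 16 had a mean of at least 20 reads, 5 were over 1.5-fold lower and 1 higher, against 12.1% and 16.0% of all windows, with a median log2 ratio of -0.20. Of the 5, Brix1 and Rad1 share 1 window, as do Drosha and 6030458C11Rik among the others, and each gene was counted. For 1B1 over 1A2, 1 of 17 was lower and 0 higher, against 4.39% and 5.73% of all windows. For 1B1 over 1F4, 2 of 17 were lower and 1 higher, against 4.35% and 6.16%. For 1F4 over 1A2, 0 of 16 passed in either direction, against 4.97% and 4.24%.

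Within 500 kb, promoters lay only downstream, apart from Npr3. Sub1, the gene next to the anchor, encodes a transcriptional coactivator and starts 32.0 kb away. It was depleted of contacts with the anchor, at 0.445 ± 0.026 in 1A2 (433 reads), 0.363 ± 0.021 in 1F4 (451 reads), 0.4475 ± 0.0276 in 1B1 (385 reads) and 0.719 ± 0.033 in 1B1 -cohesin (680 reads). It was the 1 promoter that was over 1.5-fold higher after degradation, by 0.68 ± 0.11, although still below the mean of the region. Zfr, at 153.6 kb, is the boundary described above and went the other way.

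Mtmr12, at 243.2 kb, was low in all libraries, at 0.535 ± 0.077, 0.483 ± 0.065, 0.639 ± 0.083 and 0.555 ± 0.096. Golph3, which encodes a Golgi phosphoprotein and lies 358.4 kb away, was at 0.6465 ± 0.114, 0.846 ± 0.115, 0.702 ± 0.110 and 0.942 ± 0.172. Neither moved beyond 2 counting errors after degradation. Npr3, the clearance receptor of natriuretic peptides, lies on the other side of the anchor and its promoter bins are not members. They were at 0.893 ± 0.065, 1.01 ± 0.062, 1.07 ± 0.070 and 1.28 ± 0.083, so that both genes beside the boundary had their highest contact with it in 1B1 -cohesin.

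After degradation the promoters that were over 1.5-fold lower were Zfr, Rxfp3 (-1.09 ± 0.28), Adamts12 at 902.4 kb upstream (-0.98 ± 0.39, from 2.20 ± 0.30 on 58 reads to 1.11 ± 0.26 on 19), and Brix1 and Rad1 in their shared window (-0.61 ± 0.47, from 24 to 16 reads). The last was within 2 counting errors. Brix1 takes part in ribosome assembly and Rad1 in the DNA damage checkpoint. Amacr, a racemase of branched fatty acids 985.6 kb away, was the promoter over 1.5-fold lower in 1B1 than in both lines without CTCF cassettes, at 3.99 ± 0.52 in 1A2 and 4.57 ± 0.56 in 1F4, with 2.35 ± 0.39 in 1B1 and 2.49 ± 0.46 in 1B1 -cohesin. Its ratios were -0.765 ± 0.304 and -0.96 ± 0.30, and 0.08 ± 0.36 after degradation. Rxfp3 was the other promoter over 1.5-fold lower in 1B1 than in 1F4, by -0.72 ± 0.17. Ttc23l was the 1 counted promoter over 1.5-fold higher in 1B1 than in 1F4, by 0.685 ± 0.465, under 2 counting errors. Slc45a2, C1qtnf3 and Gm2606 did not pass 1.5-fold over either line. Over 1A2 and 1F4, Slc45a2 was at -0.34 ± 0.27 and -0.56 ± 0.25, and C1qtnf3 at -0.475 ± 0.269 and -0.275 ± 0.273. Gm2606 was at -0.34 ± 0.34 and -0.21 ± 0.325. Both ratios of Gm2606 and that of C1qtnf3 over 1F4 were within about 1 counting error.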

How the data were processed

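Tiled Capture-C maps of 4 libraries were analysed, 1 per group. Per the labels and methods, the authors processed reads with HiC-Pro 2.11.4 on mm9, kept unique valid pairs within the targets, binned them at 6.4 kb and balanced the maps by iterative correction (ICE). The deposited values are this balanced signal, scaled to the same sum in each library, and not read counts. Whole reads were recovered by dividing out the bin factors, and every value came out within 0.05 of a whole read. Balancing equalises the bins' total visibility. The inserted arrays and cassettes are not in mm9.

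Observed/expected values, stripes, windows of 3 by 3 bins, insulation and boundaries were computed in Python 3.11.15 with numpy 2.4.6 and scipy 1.17.1, plots were made with matplotlib 3.10.9, and scripts were tested on simulated data. A window was counted when its 2 libraries differed by over 1.5-fold with a mean of at least 20 reads. With 1 library per group no test was run. Errors are Poisson counting errors. Named windows were the 5 highest local maxima per side (within 5 bins, at least 30 reads) in the mean of 1A2 and 1F4, the 3 most extreme windows per direction and contrast, and all promoters. Members and lists were chosen with earlier results of these data known. Alternatives were the middle anchor bin alone, recovered reads, no division by the expected value, separations of 100 to 500 kb, a mean of at least 50 reads, array neighbours left out and, for far boundaries, single pairs and squares of 10 bins.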

Additional observations from a re-analysis of the deposited data

Results flagged for a closer look

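Ligations between the anchor and the other captured regions, which belong to none of the comparisons above, were the 1 result singled out, because they were more frequent in the treated library than in the others. They numbered 28 reads in 1B1 -cohesin, against 8 in 1A2, 5 in 1F4 and 14 in 1B1. The mean over 3 bins of the whole region was 16.1 reads in 1B1 -cohesin, against 9.21, 10.4 and 11.7, so that such reads were also more frequent in the region at large. Their source was not tested.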

How the results depend on the processing

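Of 100 values recomputed under alternatives, 59 were classed as the same as those reported, including all with the bins beside the arrays left out. All 12 medians of far boundary contacts were among them. This class was broad. Against 59 reported, it took in 83 lower windows after degradation with recovered reads and 40 with a mean of at least 50 reads. It also took in the downstream ratio of 1B1 over 1F4 without division, at 0.116 against 0.03. With the middle anchor bin alone, the log2 ratio of the upstream stripe after degradation was -0.53, the downstream ratios of 1B1 and 1F4 over 1A2 were 0.20 (0.202) and 0.20 (0.203), and the log2 of upstream over downstream was 1.29, 1.21, 0.91 and 0.40 in 1A2, 1F4, 1B1 and 1B1 -cohesin. Fewer windows then had enough reads. Past 1.5-fold were 2 higher and 44 lower of 87 after degradation, 12 higher and 10 lower of 115 for 1B1 over 1A2, 3 higher and 23 lower of 121 for 1B1 over 1F4, and 10 higher and 2 lower of 120 for 1F4 over 1A2. With recovered reads the upstream ratio after degradation was -0.58, and 9 windows were higher for 1B1 over 1F4. Without division by the expected value, the upstream and downstream ratios after degradation were -0.81 and -0.72, the upstream ratios of 1B1 over 1A2 and 1F4 were -0.04 (-0.044) and -0.03 (-0.034), and that of 1F4 over 1A2 changed sign, to -0.00975. The higher and lower windows then numbered 7 and 166 after degradation, 20 and 10 for 1B1 over 1A2, 48 and 8 for 1B1 over 1F4, and 4 and 22 for 1F4 over 1A2. At 100 to 500 kb, the upstream and downstream ratios after degradation were -0.265 and -0.19, those upstream of 1B1 over 1A2 and 1F4 were -0.083 and -0.144, and the log2 of upstream over downstream was 0.435, 0.46, 0.32 and 0.24. With a mean of at least 50 reads, which tests fewer windows, 0 windows were higher and 40 lower of 123 after degradation, 0 higher and 5 lower for 1B1 over 1A2, 1 higher and 14 lower for 1B1 over 1F4, and 0 in either direction for 1F4 over 1A2, so the higher windows rested on few reads. Apart from these constructions, the cause of each difference was not tested.

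No paired analysis was possible because each group has 1 library, and for the same reason no replicate was left out. Depth limits single windows: those beyond 1000 kb often held under 40 reads a library.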
